A study of Mus musculus with 4 samples.

Results

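Collagens are extracellular matrix proteins built from 3 chains that wind around each other. Each chain carries long stretches in which glycine, the smallest amino acid, takes the first place of every unit of 3 residues. Fibrillar collagens form cables, type IV collagens form the sheet-like network of basement membranes, type VI collagens form beaded filaments, FACIT collagens decorate the surface of fibrils, and transmembrane collagens stay anchored in the plasma membrane of the cell that makes them. In the retina, basement membranes lie at the inner limiting membrane and around vessels, and fibrils of type II collagen fill the vitreous. The collagen genes were taken as all genes of the count table whose symbol is Col, a number, the letter a and a number. This gave 44 of 55471 genes, in 8 classes: 11 fibrillar, 9 FACIT, 6 type IV, 6 type VI, 4 transmembrane, 3 short chain network, 2 multiplexin and 3 others.

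RNA came from fluorescence-sorted cells of retinas of C57BL6 mice at postnatal day 6 to 7. All libraries came from the same genotype, Gbx2-CreERT2-IRES-EGFP combined with the Ai9 reporter. In this design the Gbx2 locus drives both a tamoxifen-dependent Cre recombinase, which switches on tdTomato permanently through Ai9, and EGFP, which marks cells with the locus in use at the time of sorting. No source used here gives the schedule of induction. Cells labelled as amacrine, a class of mostly inhibitory retinal interneurons, were sorted for tdTomato and then divided into a GFP-negative fraction (replicates 2 and 6) and a GFP-positive fraction (replicates 2 and 3), with 750 to 2500 cells per sample. The series text states 4 replicates from 3 litters and a sample of each fraction from each animal, so the replicates of a fraction were treated as separate animals. No source used here says whether the libraries numbered 2 came from a single animal, and other replicates were not analysed here. All p-values measure the spread between these 4 libraries.

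The libraries held 41040667 to 44689917 counts, and 3 counts corresponded to 0.063 to 0.0837 counts-per-million units (CPM, on TMM-scaled library sizes). Gbx2, the gene whose locus carries the sorting allele, was at 28.6 and 55.5 CPM in the GFP-negative libraries and at 602 and 496 CPM in the GFP-positive ones. Summed CPM of 17 amacrine cell markers was 6060.7 and 8504.6 without GFP (replicates 2 and 6). Both sums with GFP were lower, at 5077.6 for replicate 2 and 3959.1 for replicate 3. In edgeR 16 of these markers were tested. At an adjusted p under 0.05, 5 were lower in the GFP-positive fraction (beside 0.87% of all genes tested) and 0 were higher. The median log2 fold change of the 16 (GFP-positive minus GFP-negative) was -1.37. Pax6, at 1285.3 to 2243.7 CPM, overlapped between fractions (-0.19). Summed CPM of 16 rod photoreceptor markers ranged from 2126.4 in GFP-negative replicate 6 to 16610.9 in GFP-positive replicate 3, so the sorted fractions also held RNA of rods in unequal amounts. The libraries are bulk samples, in which fewer cells of a type and less RNA per cell cannot be told apart.

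All 44 collagen genes carry the glycine pattern in the reference. Each has a run of at least 20 units of 3 codons opening with a glycine codon (GGN), which was found in 20 of 21540 other protein-coding genes. Such runs are shown for the 4 transmembrane collagens, the class that holds the members past the test below: 12 consecutive units from the longest run of each, read 5′ to 3′ from GENCODE M21 coding sequence on GRCm38, with the glycine codons in capitals. The stretches start at codon 189 of Col25a1, codon 468 of Col13a1, codon 110 of Col23a1 and codon 648 of Col17a1.
Col25a1: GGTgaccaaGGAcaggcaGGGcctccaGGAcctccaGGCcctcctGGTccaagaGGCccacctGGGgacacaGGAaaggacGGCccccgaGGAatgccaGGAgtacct
Col13a1: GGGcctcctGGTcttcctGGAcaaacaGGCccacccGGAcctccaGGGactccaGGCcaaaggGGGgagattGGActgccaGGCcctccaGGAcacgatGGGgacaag
Col23a1: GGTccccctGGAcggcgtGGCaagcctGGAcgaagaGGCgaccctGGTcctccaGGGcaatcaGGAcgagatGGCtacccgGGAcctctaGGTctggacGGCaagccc
Col17a1: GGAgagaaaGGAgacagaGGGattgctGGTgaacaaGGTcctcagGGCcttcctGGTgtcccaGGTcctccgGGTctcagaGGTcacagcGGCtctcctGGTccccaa

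The uninterrupted run was longest in the fibrillar genes, while several of the other classes overlapped in range. Fibrillar genes had a longest run of 337 to 344 units, apart from Col24a1 (216) and Col27a1 (217). Transmembrane genes had a longest run of 40 (Col25a1), 43 (Col23a1), 44 (Col13a1) and 56 units (Col17a1), and the 6 type IV genes one of 39 to 66. Runs of at least 5 units covered 71.2% of the codons of Col25a1, 70.6% of Col13a1 and 69.4% of Col23a1, but 29.2% of Col17a1, a component of the hemidesmosomes that fix epithelia to their basement membrane. The exons followed the same unit. Of 1916 internal coding exons of collagen genes, 63.9% were a multiple of 9 bases long, against 13.7% of 156405 exons of other genes. An exon of exactly 54 bases made up 48.6% of the fibrillar exons, 9.33% of the transmembrane and 4.23% of the type IV exons, against 0.446% in other genes.

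**Figure D1:**
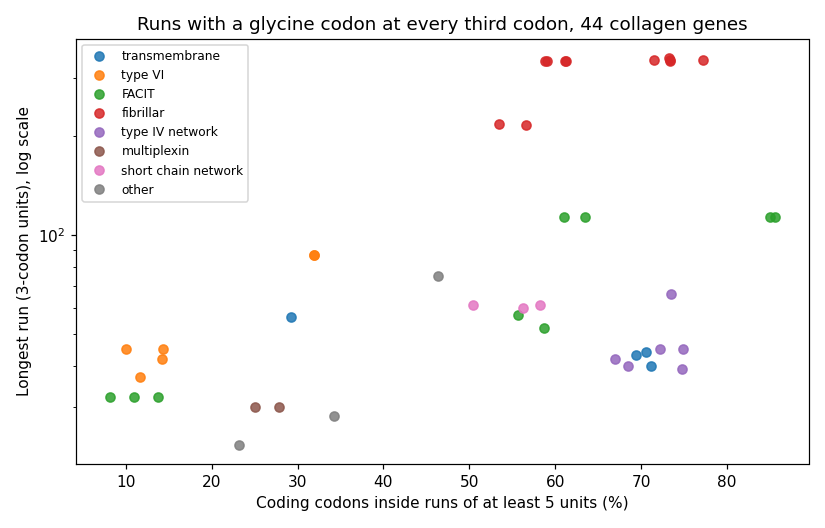
Each point is 1 of the 44 collagen genes; the x axis gives the percentage of coding codons inside runs of at least 5 units of 3 codons that open with a glycine codon, and the y axis (log scale) the longest run in units. Most fibrillar genes sit at 337 to 344 units, and the transmembrane genes at 40 to 56.

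Every collagen gene had at least 1 count, and 30 had a count in every library. The filter on low counts kept 38 of the 44 for testing. The 6 that were not tested were Col1a1 (9 and 7 GFP-negative and 20 and 0 GFP-positive counts), Col4a3, Col4a4, Col6a3, Col15a1 and Col28a1, the last with 2 counts in all. Of the 38 tested, 2 were higher in the GFP-positive fraction at an adjusted p under 0.05 and 0 were lower; 2 are 5.26% of 38, beside 0.234% of all 17940 genes tested that were called higher and 0.87% that were called lower. By limma-voom the count of lower members was also 0 and by DESeq2 it was 4 (Col6a2, Col14a1, Col23a1 and Col26a1). DESeq2 called 10 members in all, with 4.39% of all genes, and limma-voom the same 2 as edgeR, with 0.513% of all genes. At an unadjusted p under 0.05 edgeR gave 6 lower and 8 higher. These 14 are 36.8% of the members tested, beside 12.6% of all genes tested. In 12 members both GFP-positive libraries lay above both GFP-negative ones (31.6%, beside 22.5% of all genes tested), and in 8 they lay below (21.1%, beside 21.3%). The median log2 fold change (GFP-positive minus GFP-negative) of the tested members was 0.46, beside 0.04 for all genes tested. Members below the filter are not part of these counts, and Col14a1, at 0 in both GFP-positive libraries, lies at the low end of the list whichever value it is given.

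**Figure D2:**
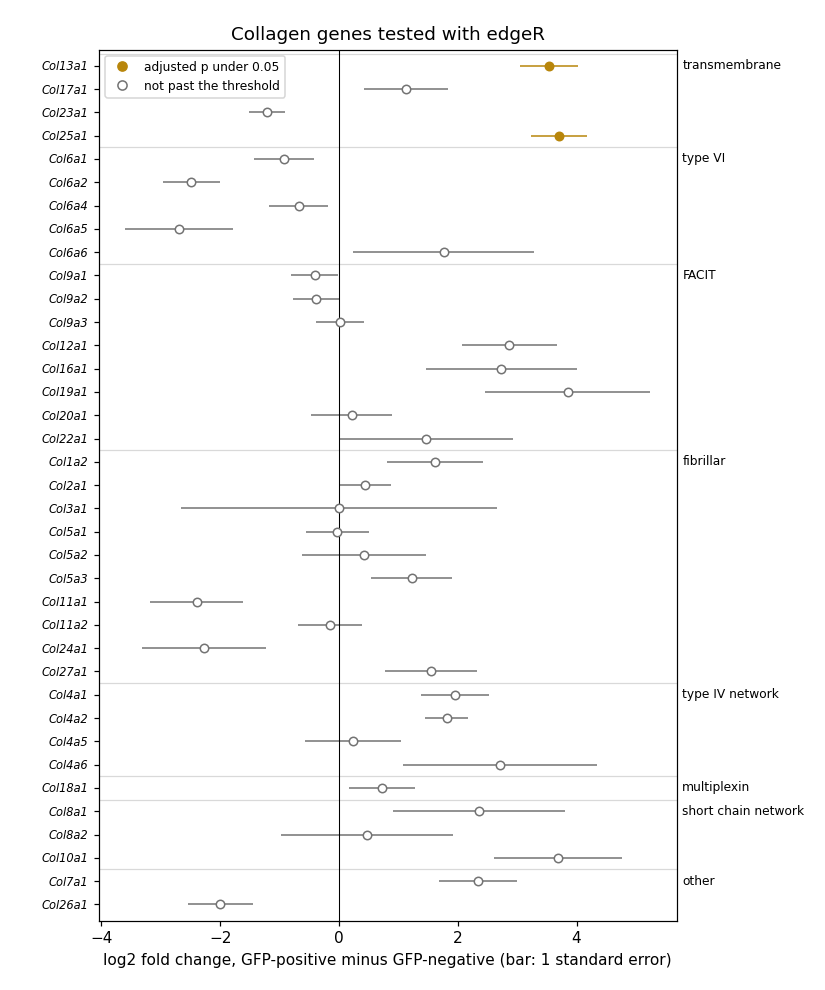
Points give the log2 fold change, GFP-positive minus GFP-negative, of the tested collagen genes by class, and bars 1 standard error of the edgeR fit. Col14a1 is not drawn, since both its GFP-positive libraries are at 0; the filled points are Col25a1 (3.70) and Col13a1 (3.53), which passed the adjusted threshold.

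The transmembrane class held both collagen genes that passed the test. In 3 of its 4 members both GFP-positive libraries lay above both GFP-negative ones, as in 22.5% of all genes tested. In 1, Col23a1, they lay below, as in 21.3% of all genes tested. Col17a1 was separated only by 33.0 against 33.2 CPM. Col25a1, whose shed ectodomain is a component of amyloid plaques and which is needed for motor innervation of muscle, was at 17.7 CPM in GFP-negative replicate 2 and 16.9 CPM in replicate 6, and at 318 CPM in GFP-positive replicate 2 and 132 CPM in replicate 3. Pairs of values below keep this order. The fractions did not overlap, and the lowest GFP-positive library was far above both GFP-negative ones. Col25a1 rose 13-fold in mean CPM, a log2 fold change of 3.70 ± 0.47 (SE) with an adjusted p of 0.0125. Over the fits that left out a library its log2 fold change ran from 2.92, without GFP-positive replicate 2, to 4.19, without GFP-positive replicate 3. Col13a1, a transmembrane collagen of cell-matrix contacts and of the neuromuscular synapse, was at 3.89 and 1.84 CPM in the GFP-negative and at 33.7 and 33.6 CPM in the GFP-positive libraries. Its GFP-positive libraries were nearly equal, and the spread lay in the GFP-negative ones. It rose 11.7-fold, a log2 fold change of 3.53 ± 0.49 with an adjusted p of 0.0154. Both calls depended on the setting: with edgeR's legacy quasi-likelihood fit the adjusted p was 0.0574 for Col25a1 and 0.0634 for Col13a1. Without GFP-negative replicate 6 it was 0.174 for both, a fit in which 1 gene of the whole table was called, and without GFP-positive replicate 2 or 3 it was 0.058 or 0.0931 for Col13a1. Its log2 fold change ran from 3.11, without GFP-negative replicate 6, to 4.13, without GFP-negative replicate 2.

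Col23a1 and Col17a1 did not pass the test. Col23a1, a transmembrane collagen that can be shed from the cell surface, was at 138 and 148 CPM in the GFP-negative and 68.8 and 54.6 CPM in the GFP-positive libraries, the opposite order to Col25a1. The fractions did not overlap, and mean CPM was 2.31 times as high in the GFP-negative fraction (log2 fold change -1.21 ± 0.30, adjusted p = 0.135; DESeq2 adjusted p = 0.00788). For Col17a1 the values were 33.0 and 4.55 CPM against 33.2 and 49.7 CPM. GFP-negative replicate 2 was at the level of the GFP-positive libraries, and GFP-negative replicate 6 alone was low. Its log2 fold change was 1.13 ± 0.71 with an adjusted p of 0.565, and 3.13 with an adjusted p of 0.0485 without GFP-negative replicate 2.

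**Figure D3:**
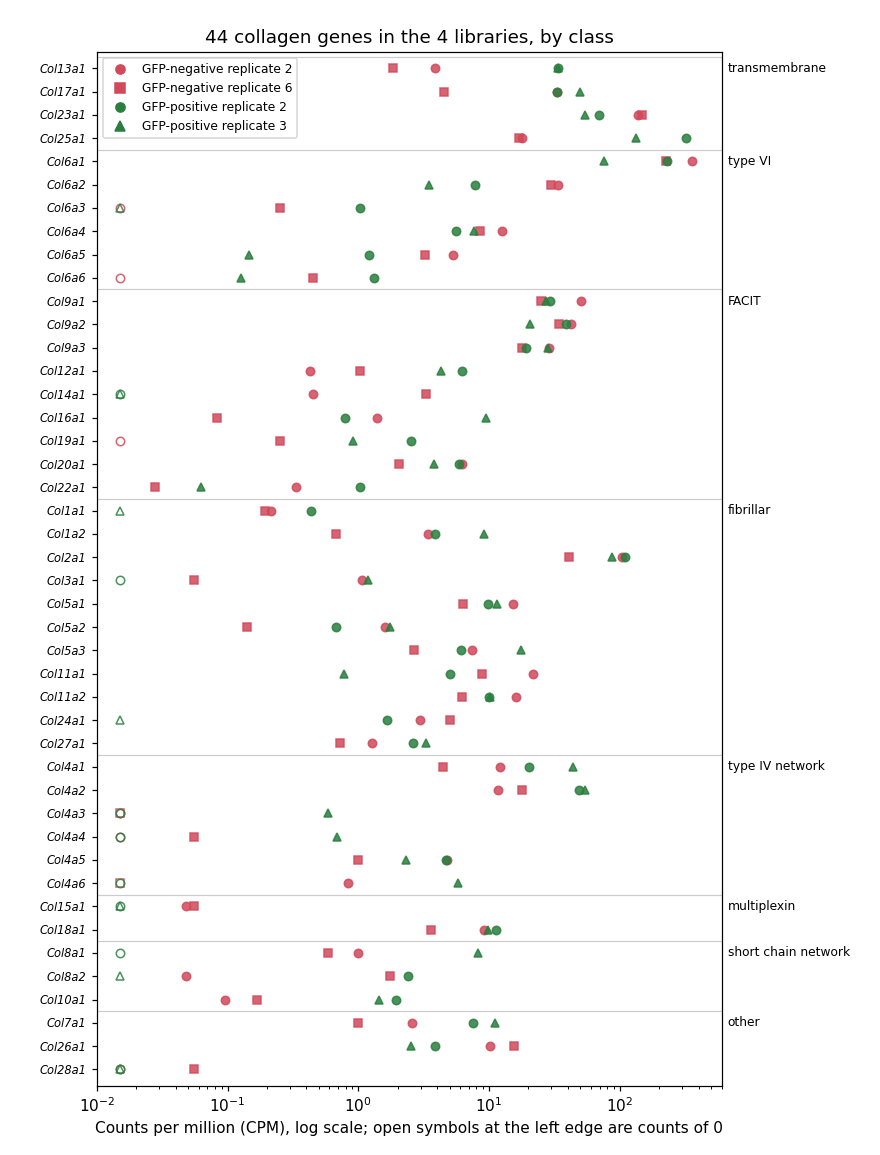
CPM (log scale) of each of the 44 collagen genes in the 4 libraries, grouped by class; shapes and colours mark the libraries, and open symbols at the left edge are counts of 0. The GFP-positive points of Col25a1 (318 and 132) and Col13a1 (33.7 and 33.6) lie to the right of their GFP-negative points.

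Col25a1 lies on chromosome 3 at chr3:130131501-130599877 (plus strand) and Col13a1 on chromosome 10 at chr10:61838236-61979108 (minus strand), both in GRCm38. The 250 bases before the RefSeq start of each are shown because these were the members that rose. Capitals mark matches on either strand to the GC box GGGCGG, the CCAAT box CCAAT, the TATA box TATAAA and the homeodomain core TAATTA. The windows are chr3:130180595-130180844 (plus strand) and chr10:61979109-61979358 (minus strand) of GRCm38.p6, from RefSeq, and are read 5′ to 3′ on the gene's strand.
Col25a1: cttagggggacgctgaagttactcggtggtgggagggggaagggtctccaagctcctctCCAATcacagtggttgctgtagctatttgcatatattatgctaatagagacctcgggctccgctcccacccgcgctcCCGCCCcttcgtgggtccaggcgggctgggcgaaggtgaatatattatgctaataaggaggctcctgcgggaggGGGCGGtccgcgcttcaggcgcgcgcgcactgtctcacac
Col13a1: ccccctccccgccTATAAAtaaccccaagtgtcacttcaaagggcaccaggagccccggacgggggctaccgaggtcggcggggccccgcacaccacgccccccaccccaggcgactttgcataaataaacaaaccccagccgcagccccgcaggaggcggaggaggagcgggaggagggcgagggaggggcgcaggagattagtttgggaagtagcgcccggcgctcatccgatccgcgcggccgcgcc

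The RefSeq start of Col25a1 lies 49.3 kb inside the GENCODE gene. In the windows of 300 bases that add the 50 bases after the start, Col25a1 held 2 GC boxes and 1 CCAAT box, and Col13a1 held 1 TATA box, at the far end of the window from the start. Over 38 such promoters of 35 collagen genes, 23 held a GC box, beside 35.7% of all 32851 promoters, 13 a CCAAT box (37.4% of all), 5 a TATA box (13.6%) and 2 a homeodomain core (5.29%). The TATA box was found at Col10a1, Col11a2, Col13a1, Col17a1 and Col3a1, and the homeodomain core at Col10a1 and Col11a2. Median GC content was 59.8% for the collagen promoters and 52.7% for all.

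Type VI collagen genes held the largest share of collagen RNA in GFP-negative cells. Per kilobase of exon, the class summed to 87.4 and 56.1 CPM per kb in the GFP-negative libraries and to 54.3 and 18.7 in the GFP-positive ones. These were 49.1% and 46.6% against 33.8% and 16.8% of all collagen CPM per kb. Nearly all of each sum was Col6a1, at 81.3 and 51.1 against 52.3 and 17.4 CPM per kb. Of the 5 members tested, 0 passed the adjusted threshold in edgeR or limma-voom, 1 did in DESeq2 (Col6a2) and 2 had an unadjusted p under 0.05. Beside these stand 4.39% of all genes tested in DESeq2 and 12.6% at an unadjusted p under 0.05. The log2 fold change was negative in 4 of the 5. Col6a1, which encodes the α1 chain, was at 356 and 224 CPM against 229 and 76.1 CPM. The ranges overlapped, with GFP-positive replicate 3 alone below the others (log2 fold change -0.93 ± 0.51, adjusted p = 0.511; -0.34 without it and -1.95 without GFP-positive replicate 2). Col6a2, the α2 chain that joins α1 in the same molecule, was at 33.6 and 29.8 CPM against 7.85 and 3.49 CPM. Its fractions did not overlap, mean CPM was 5.60 times as high in GFP-negative cells, and the adjusted p was 0.0554 (log2 fold change -2.49 ± 0.48). It passed under RLE scaling (0.0321), upper-quartile scaling (0.0411) and a stricter expression filter (0.0359), but not in the legacy fit (0.143) or in any fit that left out a library (0.058 to 0.296). Its log2 fold change was -3.20 without GFP-positive replicate 2 and -2.02 without GFP-positive replicate 3.

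The other type VI chains were at lower levels. Col6a5 was at 5.33 and 3.24 CPM against 1.2 and 0.147 CPM (log2 fold change -2.69 ± 0.91, adjusted p = 0.273; -4.86 without GFP-positive replicate 2 and -1.84 without GFP-positive replicate 3), and Col6a4 at 12.6 and 8.57 CPM against 5.62 and 7.63 CPM. Col6a3, the α3 chain of the classical molecule, had 0 and 9 counts against 47 and 0, and Col6a6 had 0 and 16 counts against 60 and 6. The chain ratio was also unequal: per kilobase, Col6a1 exceeded Col6a2 by 20.2 and 14.3 times in the GFP-negative and by 55.5 and 41.5 times in the GFP-positive libraries. The size of these ratios depends on the exon lengths used, 4.38 kb for Col6a1 and 8.33 kb for Col6a2. Their coding sequences are nearly equal, at 1025 and 1034 codons, and in CPM the ratios are smaller. Müller glia markers, which moved the same way as a sum, were at 1788 and 2155.9 CPM against 834 and 1044.4 CPM. Most of the GFP-negative sums came from 1 gene, Dkk3. All 13 were tested, 1 was called lower (Dkk3, 1007.3 and 1576.3 CPM against 244 and 131 CPM, adjusted p = 0.0342), and their median log2 fold change was 0.17. Apoe, the next most abundant, was at 233 and 125 CPM against 122 and 333 CPM. Astrocyte markers summed to 148 and 106 CPM against 51.4 and 82.4 CPM, with Aldoc at 104 and 96.4 against 45.9 and 71.2 CPM. All 7 were tested, with a median log2 fold change of -1.72. Of these, 0 were called in edgeR and 1 in DESeq2 (beside 4.39% of all genes tested). An unadjusted p under 0.05 in edgeR was found for 3 (beside 12.6% of all genes tested). Markers of fibroblasts, cells that make type VI collagen in many tissues, summed to 42.8 and 21.1 CPM against 24.8 and 27.7 CPM. Pdgfra, which was on both the fibroblast and the astrocyte list and so in both sums, was at 22.2 and 4.8 against 2.32 and 3.78 CPM. Serping1 was at 7.9 to 9.2 CPM and Twist1 at 0 in all libraries. Microglia markers summed to 137 and 111 CPM against 58 and 147 CPM, with Csf1r at 35.2 and 14.8 against 6.88 and 24.9 CPM. The part of glial or fibroblast RNA in the type VI values was not tested.

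**Figure D4:**
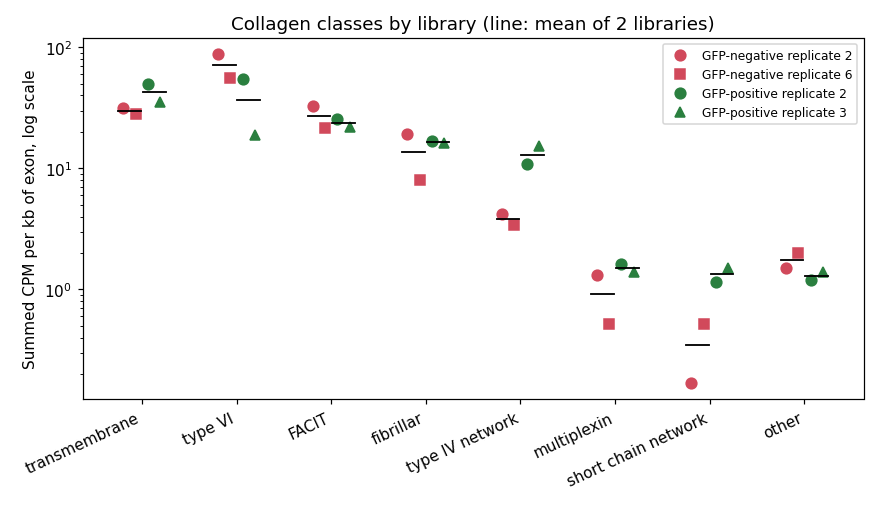
Summed CPM per kilobase of exon (log scale) of each collagen class in the 4 libraries, with a line at the mean of each fraction. Type VI is lower and type IV higher in the GFP-positive libraries, although type VI in GFP-negative replicate 6 (56.1) is close to GFP-positive replicate 2 (54.3). Nearly all of the type VI sum is Col6a1.

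Type IV collagen genes, the network formers of basement membranes, summed to 26.3 ± 4.48 CPM (SD, n = 2) without GFP and 90.7 ± 24.3 CPM with it. Per kilobase the class took 2.37% and 2.83% of collagen CPM in the GFP-negative libraries and 6.7% and 13.7% in the GFP-positive ones. Of 4 members tested, 0 passed the adjusted threshold in edgeR and in limma-voom, 2 did in DESeq2, and 2 had an unadjusted p under 0.05. Over all genes tested DESeq2 called 4.39%, and 12.6% had an unadjusted p under 0.05 in edgeR. Col4a2, the α2 chain of the common network, was at 11.8 and 17.7 CPM against 48.6 and 54.5 CPM. Both GFP-positive libraries were above both GFP-negative ones (3.50-fold in mean CPM, log2 fold change 1.81 ± 0.36), and the adjusted p was 0.0629. The call was made under RLE scaling (0.0476), upper-quartile scaling (0.0419), scaling by library size alone (0.0382) and the stricter filter (0.0311). It was not made in limma-voom (0.0875), without the filter on low counts (0.122) or in the legacy fit (0.122). Over the fits that left out a library the log2 fold change of Col4a2 ran from 1.49 to 2.13. Col4a1, its α1 partner, was at 12.1 and 4.41 CPM against 20.3 and 44 CPM, a log2 fold change of 1.95 ± 0.57 with an adjusted p of 0.209 (1.28 and 0.72 without GFP-positive replicate 3). The pair is head to head on chromosome 8, at chr8:11198423-11312826 (Col4a1, minus strand) and chr8:11312805-11449287 (Col4a2, plus strand), and the genes overlap by 22 bp. Although chains of the common network join as α1, α1 and α2, the ratio of Col4a1 to Col4a2 per kilobase was 0.912 and 0.221 in the GFP-negative and 0.369 and 0.716 in the GFP-positive libraries.

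The remaining type IV genes form a head-to-head pair on chromosome 1 (Col4a4 and Col4a3, 71 bp apart) and another on chromosome X (Col4a6 and Col4a5, 1308 bp apart). Col4a3 had 28 counts and Col4a4 33 counts in GFP-positive replicate 3, and at most 2 counts in any other library. Col4a6 was at 5.82 CPM in GFP-positive replicate 3, at 0.836 CPM in GFP-negative replicate 2 and at 0 in the other libraries. Its partner Col4a5 did not follow it, with 4.75 and 1.00 CPM against 4.66 and 2.33 CPM.

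Vessel markers were given beside these values, since endothelial cells and pericytes lay down type IV collagen. The 15 endothelial markers, 7 of them tested and 0 called (0 also by DESeq2, by limma-voom and at an unadjusted p under 0.05), summed to 101 and 73.8 CPM against 125 and 140 CPM. Kdr, a receptor for vascular endothelial growth factor, was the most abundant, at 79.6 and 58.5 CPM against 118 and 69.2 CPM. It made up most of the sum in every library except GFP-positive replicate 3, with 118 of 125 CPM in GFP-positive replicate 2. Esam, next by mean level, was at 5.42 and 1.09 CPM against 0.328 and 19.1 CPM, Ramp2 at 6.55 and 6.78 against 4.07 and 5.82 CPM, and Egfl7 at 4.85 and 5.92 against 2.27 and 9.9 CPM. These genes were detected in every library, with no common order. Esam, Ramp2 and Egfl7 were lowest in GFP-positive replicate 2, where Kdr was highest. Of the 13 endothelial markers with a count, 9 were highest in GFP-positive replicate 3 (beside 32.5% of all genes tested). Among them, Tie1 was at 9.22 CPM there and at 0 CPM elsewhere, Cdh5 at 0 and 0.0558 against 0 and 2.16 CPM, and Cldn5 at 1.05 and 0 against 0.175 and 10.7 CPM. Pecam1, an adhesion molecule of endothelial junctions, was highest in GFP-negative replicate 2, at 1.27 and 0.335 CPM against 0.678 and 0.42 CPM. Ly6c1 and Erg were at 0 in all libraries. Pericyte and smooth muscle markers, 7 of 13 tested and 0 called, summed to 35.8 and 17.0 CPM against 27.4 and 87.8 CPM. DESeq2 and limma-voom also called 0, and 2 had an unadjusted p under 0.05 (beside 12.6% of all genes tested). Of the 13, 8 were highest in GFP-positive replicate 3 (beside 32.5% of all genes tested). Vtn was at 19.4 and 5.97 CPM against 17.4 and 53.4 CPM, and Rgs5 at 9.51 and 3.54 against 0.0656 and 13.2 CPM. Pdgfrb, the pericyte receptor for platelet-derived growth factor, was at 0 and 0.614 CPM against 2.89 and 7.92 CPM. Without GFP-positive replicate 3 the log2 fold change of Col4a2 was 1.72, with an adjusted p of 0.294. Col4a1, Col4a2, Col4a3, Col4a4 and Col4a6 were all highest in GFP-positive replicate 3, the library with the highest endothelial and pericyte sums. Over all classes, 12 of the 38 members tested were highest in this library (31.6%, beside 32.5% of all genes tested). The part of vessel or pigment epithelium RNA in the type IV values was not tested.

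**Figure D5:**
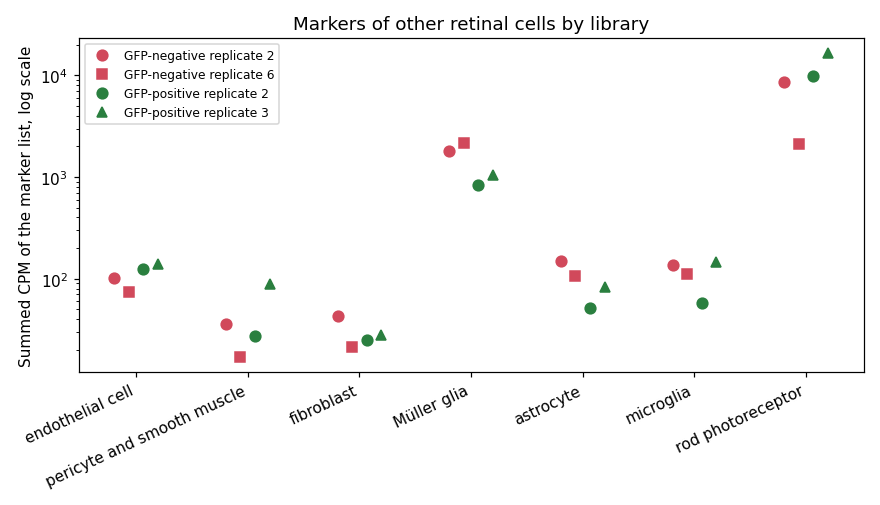
Summed CPM (log scale) of marker lists of other retinal cell types in the 4 libraries. GFP-positive replicate 3 has the highest pericyte and smooth muscle sum (87.8). Müller glia sums are lower in the GFP-positive libraries (834 and 1044.4), but most of the GFP-negative sums is Dkk3.

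Among fibrillar collagens, Col2a1 was the most abundant in every library. It encodes the chain of type II collagen, the main fibril of cartilage and vitreous, and was at 104 and 40.9 CPM against 110 and 86.9 CPM (log2 fold change 0.44 ± 0.43, adjusted p = 0.73). Class sums per kilobase were 19.2 and 7.99 against 16.7 and 16.1 CPM per kb, so GFP-negative replicate 6 was the low library and the other 3 lay close together. Of 10 fibrillar genes tested, 0 passed in edgeR, limma-voom and DESeq2 and 1 had an unadjusted p under 0.05 (12.6% of all genes tested did). The log2 fold change was positive in 6 and negative in 4. Col11a1, which sets the diameter of type II fibrils, was at 21.5 and 8.87 CPM against 5.03 and 0.778 CPM. Its fractions did not overlap (log2 fold change -2.40 ± 0.79, adjusted p = 0.26), but the value was -4.30 without GFP-positive replicate 2 and -1.60 without GFP-positive replicate 3. Col11a2, a partner chain in the same trimers, overlapped between fractions, with 16 and 6.20 against 9.99 and 10.1 CPM. The ratio of Col11a1 to Col11a2 per kilobase was 0.725 and 0.773 in the GFP-negative and 0.271 and 0.0416 in the GFP-positive libraries. Col24a1 was at 2.94 and 5.05 CPM against 1.66 and 0 CPM.

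Fibrillar chains of connective tissue were low. Col1a2 was at 3.44 and 0.67 CPM against 3.89 and 9.10 CPM, Col3a1 at 1.07 and 0.0558 against 0 and 1.18 CPM, and Col5a2 at 1.60 and 0.14 against 0.678 and 1.74 CPM. The type V chains Col5a1 (15.2 and 6.36 against 9.75 and 11.5 CPM) and Col5a3 (7.36 and 2.68 against 6.14 and 17.5 CPM) were above them and overlapped between fractions. Col27a1 was at 1.27 and 0.726 CPM against 2.64 and 3.28 CPM, a separated but small difference (log2 fold change 1.55 ± 0.78, adjusted p = 0.469). Low values in GFP-negative replicate 6 were shared by many members: it was the lowest library for 19 of the 38 tested (50%, beside 33.0% of all genes tested). It was also the library with the least rod RNA. For 5 members (13.2%, beside 10.4% of all genes tested) the 4 libraries stood in the same order as the rod marker sum.

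FACIT collagens, which bind to fibril surfaces, held 9 tested genes, of which 0 passed in edgeR and in limma-voom. In DESeq2 2 passed (Col12a1 and Col14a1, beside 4.39% of all genes tested). An unadjusted p under 0.05 was found for 3 (beside 12.6% of all genes tested). The 3 chains of type IX collagen, which coats type II fibrils of cartilage and vitreous, were the abundant members. Col9a1 was at 50.4 and 24.8 CPM against 29.4 and 27.2 CPM, Col9a2 at 42.4 and 34.5 against 38.6 and 20.5 CPM, and Col9a3 at 28.5 and 18.0 against 19.2 and 28.1 CPM. All 3 overlapped between fractions, with log2 fold changes of -0.41 ± 0.40, -0.38 ± 0.39 and 0.02 ± 0.40. Col12a1, a FACIT of tendon and other dense matrix, was at 0.43 and 1.03 CPM against 6.19 and 4.31 CPM, a separated difference of 7.17-fold (log2 fold change 2.87 ± 0.80, adjusted p = 0.184; 2.28 to 3.60 without GFP-negative replicate 2 or 6). Col14a1 had 19 and 118 counts against 0 and 0. Its mean was at least 54.9-fold lower in the GFP-positive fraction, with a floor of 3 counts for the summed group, and most of its counts came from GFP-negative replicate 6 (adjusted p = 0.183). Col19a1 had 0 and 9 counts against 116 and 43 counts. Col16a1 was at 9.44 CPM in GFP-positive replicate 3 and at most at 1.39 CPM elsewhere. Col20a1 was at 6.21 and 2.04 against 5.90 and 3.80 CPM, and Col22a1 had at most 47 counts in a library.

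The smaller classes held no member past the edgeR threshold (0 also by limma-voom). DESeq2 called Col7a1 and Col26a1 (beside 4.39% of all genes tested). These and Col10a1 had an unadjusted p under 0.05 in edgeR (beside 12.6% of all genes tested). Col18a1, the multiplexin of vascular and epithelial basement membranes from which endostatin is cut, was at 9.15 and 3.57 CPM against 11.3 and 9.86 CPM, and its relative Col15a1 had 2 and 2 counts against 0 and 0. Col7a1, which forms the anchoring fibrils of skin, was at 2.58 and 1.00 CPM against 7.47 and 11.1 CPM (log2 fold change 2.34 ± 0.66, adjusted p = 0.188; 3.14 without GFP-negative replicate 2). Col26a1 showed the opposite order, with 10.2 and 15.5 CPM against 3.89 and 2.54 CPM (log2 fold change -2.00 ± 0.55, adjusted p = 0.175). In both genes the fractions did not overlap. The short chain collagens were near the lower end: Col10a1, known from hypertrophic cartilage, had 4 and 6 counts against 89 and 69 counts (log2 fold change 3.69 ± 1.08, adjusted p = 0.183). Col8a1, a component of the corneal Descemet membrane, was at 8.20 CPM in GFP-positive replicate 3 and at 0 in GFP-positive replicate 2, with 1.00 and 0.586 CPM in the GFP-negative libraries. Col8a2 had 2 and 63 counts against 110 and 0 counts.

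Compared per kilobase of exon, collagen levels in GFP-negative cells were led by Col6a1 (66.2 ± 21.4 CPM per kb, SD, n = 2), followed by Col23a1 (24.9 ± 1.25), Col9a2 (12.4 ± 1.80), Col2a1 (7.82 ± 4.8) and Col9a1 (7.41 ± 3.57). The order from Col9a2 downward is not resolved, since the spreads of neighbours overlap. In GFP-positive cells Col6a1 was again first (34.8 ± 24.7 CPM per kb), but its spread covered Col25a1 (17.4 ± 10.1), and that of Col25a1 covered Col23a1 (10.8 ± 1.76), Col2a1 (10.7 ± 1.77) and Col9a2 (9.56 ± 4.14). Col25a1 stood in place 12 in GFP-negative cells, at 1.34 ± 0.0403 CPM per kb, and in place 2 in GFP-positive cells. Col13a1 stood in place 20 (0.623 ± 0.315) and place 7 (7.31 ± 0.0254), and Col6a2 in place 7 (3.81 ± 0.319) and place 20 (0.681 ± 0.370). The 4 transmembrane genes took 17.8% and 23.4% of collagen CPM per kb in the GFP-negative and 30.8% and 31.6% in the GFP-positive libraries. Over all collagen genes the sum did not separate the fractions, at 178 and 121 against 160 and 112 CPM per kb.

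The genes that make, bind and degrade collagen were counted over 5 lists, chosen by function. Of 83 genes 74 were tested; 1 passed, and it was lower (1.35%, beside 0.87% of all genes tested), and 13 had an unadjusted p under 0.05 (17.6%, beside 12.6%). Mmp9, the gelatinase that cleaves denatured collagen and type IV collagen, was at 29.7 and 32.9 CPM in the GFP-negative and 1.31 and 2.65 CPM in the GFP-positive libraries. It fell by 3.98 ± 0.50 on the log2 scale, with an adjusted p of 0.0125 (0.0511 with the legacy fit, 0.124 without GFP-negative replicate 6 and 0.0603 without GFP-positive replicate 3). Of the 14 genes of degrading enzymes and their inhibitors, 11 were tested and 3 had an unadjusted p under 0.05; Timp2, the most abundant, was at 267 and 646 CPM against 256 and 127 CPM, and Mmp8 and Mmp1a were at 0. The other lists held 0 called genes by edgeR and limma-voom and 1 by DESeq2, with 2, 0, 4 and 4 genes at an unadjusted p under 0.05 in the order given here. All 21 genes of hydroxylation, glycosylation and folding were tested (median log2 fold change -0.06), with P4hb, the protein disulfide isomerase subunit of prolyl hydroxylase, at 356 and 615 CPM against 359 and 313 CPM. Of 16 genes of procollagen cleavage and cross-linking, 13 were tested (median 0.54), with the processing protease Furin at 80.5 and 67.1 against 95.8 and 64.6 CPM. Of 15 collagen receptor genes, 13 were tested (median 0.27), with the receptor phosphatase Ptprs at 620 and 597 against 799 and 507 CPM and Gp6, the platelet receptor, at 0. Of 17 basement membrane partners, 16 were tested (median 0.51), with Agrn, which encodes agrin, at 173 and 162 against 292 and 211 CPM. The median of all genes tested was 0.04.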

How the data were processed

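Raw counts of reads for 55471 Ensembl genes in the 4 libraries were deposited by the authors, per the file headers. SMART-Seq Ultra Low Input cDNA libraries were made from sorted cells, per the labels' protocols. The submitters' processing notes name Trimmomatic, STAR 2.7.3a, MultiQC, limma and GRCm38 without saying what each did. No source used here gives the counting tool, annotation or strand setting, so reads of overlapping genes cannot be told apart. A second deposited table was not used.

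GFP-positive was compared with GFP-negative in edgeR 4.0.16 (R 4.3.3) with TMM scaling, filterByExpr (minimum count 10), a robust quasi-likelihood fit and Benjamini-Hochberg adjustment over 17940 genes, threshold 0.05, after a test on simulated data. The quasi-likelihood method of edgeR 4 (legacy=FALSE) was used; this choice was made with its result and that of the legacy default both known. The 3-count floor covers counting error only. CPM used TMM-scaled library sizes, and lengths were GENCODE M21 exon unions (55230 IDs matched). Levels and ratios per kilobase therefore depend on the annotated exons. Alternatives included DESeq2 1.42.0 and limma 3.58.1 voom, other scalings and filters, and leaving out each library.

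The members and lists were chosen with earlier results of these data known. Every collagen gene was named; of the pathway lists, called genes and the most abundant; of the other cell types' lists, the 2 most abundant and those at 0, except 1 gene that is not reported here. Vessel genes beyond these were chosen after their values were seen. Protein sequences were not used here.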

Additional observations from a re-analysis of the deposited data

How the results depend on the processing

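Collagen genes called, 2 in the reported fit, were 4 under RLE scaling, upper-quartile scaling and the filter of over 5 CPM in at least 2 libraries, 10 in DESeq2, 0 in the legacy fit (an alternative chosen after seeing the data), and 0 to 3 when a library was left out. The added ones were Col4a2 and Col6a2 in the first 3 settings and Col17a1 without GFP-negative replicate 2. Pathway genes called were 1 in the reported fit, 2 under RLE scaling, 3 in DESeq2, 0 in the legacy fit and 0 to 2 with a library left out. Across all genes tested, 198 were called, against 106 without the filter, 787 in DESeq2, 92 in limma-voom, 48 in the legacy fit and 1 to 336 with a library left out. Scaling by library size alone shifted the median log2 fold change of all genes by 0.17. Of 38 member fold changes, 23 kept their direction in every setting run and 15 reversed in at least 1; the cause was not tested. All 14 settings gave a value for 21 members, and 13 for the 17 that the filter of over 5 CPM removed. Leaving out a library moved 29 of the 38 by over 1.5 times. Leaving out a library gave a log2 fold change of -8.06 to 3.32 for Col8a1, -0.67 to 0.64 for Col11a2, -0.36 to 1.19 for Col20a1, -0.83 to 0.13 for Col9a1, -0.42 to 3.04 for Col5a2, -7.62 to 3.30 for Col3a1 and -7.20 to 9.97 for Col4a6. It gave -0.45 to 1.73 for Col4a5, -1.58 to 4.08 for Col22a1, -0.28 to 0.33 for Col9a3, -8.19 to 4.56 for Col8a2, -0.07 to 1.21 for Col2a1, -0.51 to 0.68 for Col5a1, -0.93 to 0.0027 for Col9a2 and -0.73 to 8 for Col6a6. Without a reversal, the ranges reached -10.39 to -1.26 for Col24a1, 2.69 to 9.27 for Col19a1, 0.03 to 5.84 for Col16a1, 0.33 to 3.13 for Col17a1, 0.89 to 3.22 for Col1a2, 0.28 to 2.08 for Col5a3, 0.21 to 1.51 for Col18a1 and 1.28 to 2.81 for Col4a1. The most extreme values belong to genes at 0 in a library. In limma-voom the value was -1.34 for Col8a1, -1.34 for Col3a1, -0.94 for Col8a2 and 0.08 for Col5a1. For Col3a1, at 0.0001 in the reported fit, it was -0.01 under RLE scaling, -0.03 without the filter and -0.0012 with rod, mitochondrial and hemoglobin genes left out. For Col9a3 it was -0.0034 without the filter. For Col5a1 it was 0.11 by library size alone, 0.02 under upper-quartile scaling and 0.03 with the stricter filter. On the library total, the GFP-positive fibrillar sum was 155 CPM (146 reported) and the pigment epithelium marker sum 159 CPM (150 reported). No paired analysis was possible because the fractions share only replicate number 2. With 2 libraries a fraction and a common biological coefficient of variation of 55.42%, adjusted p-values rest on few degrees of freedom, and members of a few counts gave imprecise fold changes.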
